A study of Homo sapiens with 2 samples.

Results

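The genes described here are those of the cytoplasmic translation initiation and elongation factors, taken as every gene whose symbol begins with EIF or EEF and a digit in both expression tables, with the argonaute genes once named EIF2C left out. The rule found 63 genes among 19096 gene symbols, on 119 rows, and where a gene had several rows the one with the highest level, averaged over both libraries, was used. RNA sequencing was made of poly(A)-selected RNA from P493-6, a human B cell line labelled as B-cell lymphoma, in which tetracycline keeps a c-Myc transgene repressed. The low c-Myc group was 1 library of cells taken 0 h after release of that repression, and the high c-Myc group was 1 library of cells taken 24 h after it. Both groups are the same cell line grown in the same medium and carry the same transgene, and no group without the transgene was part of the comparison.

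Levels are given as RPKM, which divides reads by transcript length and by library size, so that genes can be compared with each other. A change in total RNA per cell does not show on this scale, and per-cell values are given further below. Pairs of levels are given in the order low c-Myc, then high c-Myc, also called before and after release. Ratios of high over low c-Myc are log2 ratios of RPKM + 0.5, which draws weakly expressed genes towards 0. A gene counts as measured at a mean RPKM of at least 1 over both libraries, and as higher or lower at a ratio of 2-fold or more. With 1 library per group no difference has a replicate check and no test was possible, so every value describes this pair of libraries.

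The steps between low values implied about 103000000 reads before and 105000000 reads after release. MYC itself stood at 836 and 2358 RPKM. The B cell markers MS4A1, CD79A, CD79B, CD22 and PAX5 were measured, at 138 to 1202 RPKM before and 51.8 to 460 RPKM after release. Each was lower in RPKM after it, which is relative to library size and need not mean a lower level per cell. The summed RPKM of the myeloid, T cell, NK cell and fibroblast and epithelial lists was also smaller after release. Of 5 myeloid markers 3 were measured, with a summed RPKM of 151 and 35.6, and of 5 T cell markers 3 were measured, with a sum of 12.5 and 1.96 and CD3D and CD8A at 0. The NK cell list (1 of 3 measured) summed to 10.6 and 5.20, and the fibroblast and epithelial list (2 of 5, KRT18 at 0) to 19.2 and 13.0. Of the erythroid markers, HBB and ALAS2 were at 0 in both libraries and HBA1 stood at 0 and 0.165. The part of these other markers in the results was not tested.

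Translation starts when the small ribosomal subunit, loaded with initiator tRNA by eIF2, is brought to the capped 5′ end of an mRNA by the eIF4F complex and the eIF3 scaffold, and scans to a start codon. Elongation factors then deliver each aminoacyl-tRNA and move the ribosome along. The supply of active eIF2 is set by its exchange factor eIF2B and by the EIF2AK kinases that phosphorylate it, and access to the cap by the EIF4EBP proteins, which occupy the cap-binding protein eIF4E. Several of these factors are known targets of c-Myc, whose growth programme depends on protein synthesis.

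Of the 63 genes 58 were measured, and 21 of them (36.2%) were past 2-fold higher after release, where 24.9% of all 10272 expressed genes were. EIF2AK2 was the 1 gene past 2-fold lower, against 9.74% of all expressed genes, and 36 lay between. The median log2 ratio was 0.73 (interquartile range over genes 0.13 to 1.26, SD 0.91), beside 0.22 for all expressed genes. The ratio was above 0 for 44 of the genes and below 0 for 14. Most of the genes are abundant. Of the 58, 30 were in the most abundant of 4 equal bins of expressed genes, where 38.2% of all genes were at least 2-fold higher around a median of 0.64. Of those 30, 14 were higher, around a median of 0.93. In the bin below, 3 of 14 were higher, where 27.97% of all genes were. The balance of calls moved with the scaling, and 14 of the 58 genes, all with ratios between -0.25 and 0.61, changed sign under at least 1 of centring, quantile normalization and a correction for GC content. Quantile normalization gave 15 higher and 5 lower genes, with a median of 0.22, where 1793 (17.5%) of the 10272 expressed genes were higher and 1749 lower around a median of -0.09. Centring on the median of all expressed genes gave 15 and 2, where 2036 (19.8%) of all were higher and 1516 lower. Under both scalings EIF2B2, EIF3A, EIF3I, EIF4A1, EIF6 and EIF4EBP3 were no longer past 2-fold. EIF2AK3 passed 2-fold lower under both, and EIF1, EIF1B and EIF4G3 under quantile normalization.

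The summed RPKM of the 58 genes was 3043 before and 6532 after release. Their share of the summed RPKM of all expressed genes was 1.33% and 2.18%. EEF2 alone made up 40.9% and 46.1% of the genes' own sum, and without it the share of all expressed genes was 0.785% and 1.18%. The groups did not move together. As deposited, the EIF4EBP proteins had the highest group median and the eIF1 group and the EIF2AK kinases the lowest. With the GC correction eIF3 (1.22) and eIF5 and eIF6 (1.10) stood above the EIF4EBP proteins (0.97). As deposited, medians were close to 2-fold for eIF3, for eIF5 and eIF6 and for the elongation factors.

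**Figure D1:**
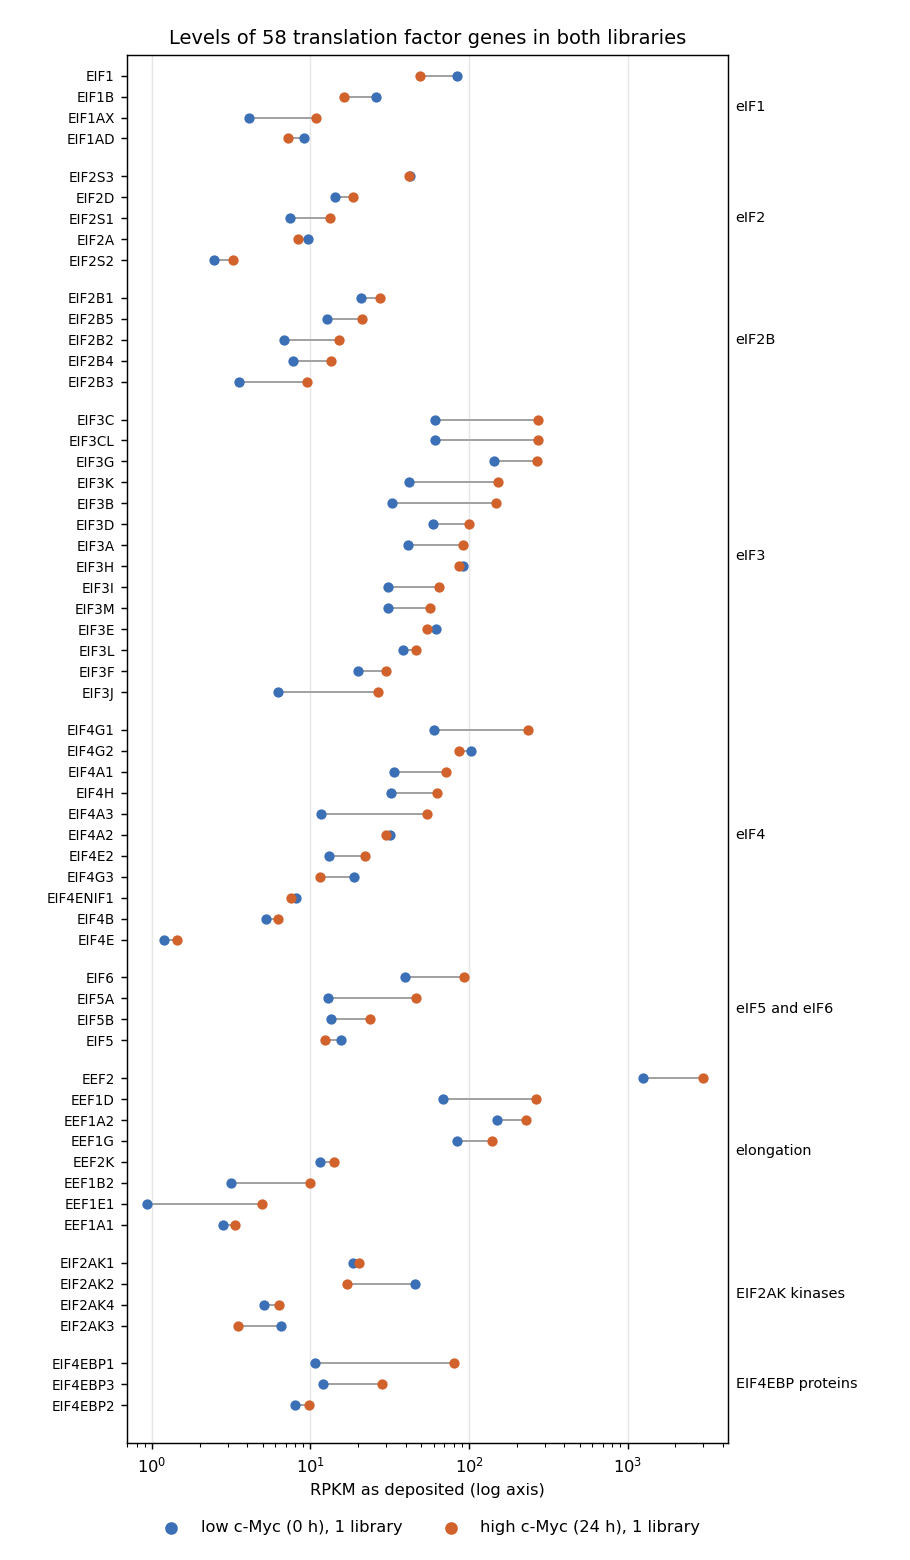
RPKM (log axis) of each of the 58 measured genes in the low c-Myc library (blue) and the high c-Myc library (orange). Genes are grouped by complex and ordered within a group by their level in the high c-Myc library. The levels run from 0.932 for EEF1E1 to 1245 for EEF2 in the low c-Myc library and from 1.44 for EIF4E to 3012 for EEF2 in the high one, and the line between points shows the direction of each gene.

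**Figure D2:**
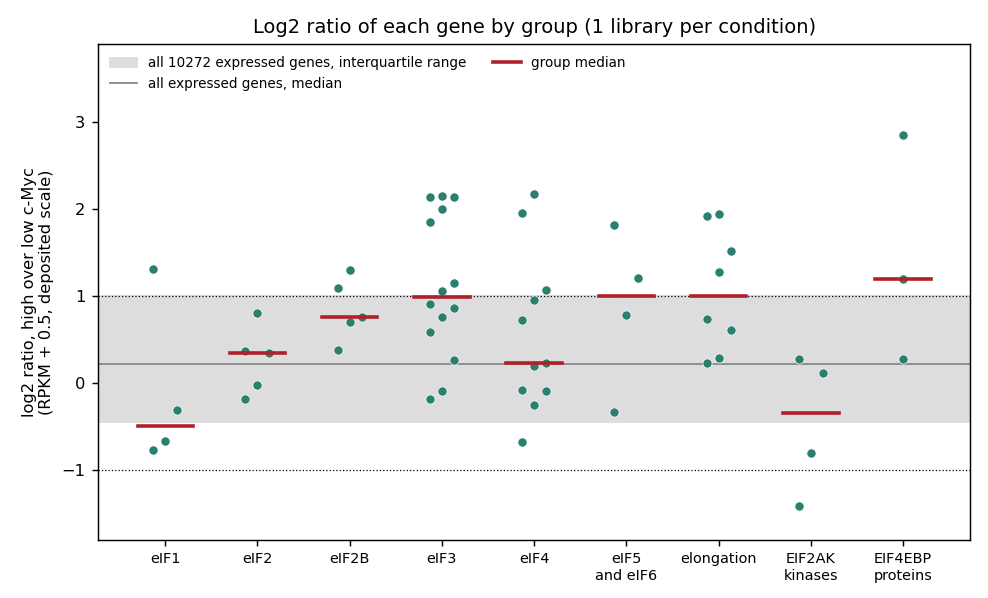
Log2 ratio of high over low c-Myc for each gene (points) with its group's median (red bar). The grey band and line are the interquartile range and the median (0.22) of all 10272 expressed genes, dotted lines mark 2-fold, and each gene has 1 library per condition, so no error bar can be drawn.

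None of the 5 genes of the eIF2 group, which delivers the initiator tRNA, passed 2-fold in either direction as deposited, and their median log2 ratio was 0.34, which quantile normalization turned to -0.11. EIF2S1, the alpha subunit that carries the regulatory phosphorylation site, stood at 7.43 and 13.4 RPKM (log2 ratio 0.80, or 1.26 once corrected for GC content). EIF2S2, the beta subunit, stood at 2.47 and 3.26, and EIF2S3, the GTP-binding gamma subunit, at 42.7 and 42.1 (log2 ratio -0.02, or 0.26 with the GC correction). Within each library the 3 subunits of 1 complex were therefore listed at levels far apart, with EIF2S3 above and EIF2S2 below. The summed RPKM of the 3 subunits was 52.6 and 58.7, a ratio of 1.12. EIF2A, an alternative initiator tRNA factor that is no subunit of eIF2, stood at 9.58 and 8.38. EIF2D, which can also bring tRNA to the ribosome, stood at 14.3 and 18.5.

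All 5 subunits of eIF2B, the exchange factor that reloads eIF2 with GTP, had ratios above 0, although that of EIF2B1 was -0.17 with quantile normalization. Their summed RPKM was 51.9 before and 86.6 after release, a ratio of 1.67. This sum covers 5 genes and that of the eIF2 subunits 3, so the 2 sums do not compare the levels of the complexes. EIF2B3, the gamma subunit, had the highest ratio at 1.30 (RPKM 3.54 and 9.45), and EIF2B2, the beta subunit, followed at 1.09 (6.82 and 15.1). EIF2B4, the delta subunit, stood at 7.79 and 13.5, and EIF2B5, the catalytic epsilon subunit, at 12.8 and 21.2. EIF2B1, the alpha subunit, was the most abundant in both libraries at 21.0 and 27.3 and had the lowest ratio of the 5, at 0.38. The 2 subunits past 2-fold were the 2 with the lowest levels before release, but EIF2B2 was under 2-fold with centring (0.87) and with quantile normalization (0.77).

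The 4 kinases that phosphorylate eIF2 each answer to a different stress, and none was 2-fold higher. EIF2AK2, which encodes the double-stranded RNA sensor PKR and is a known interferon-inducible gene, stood at 45.92 RPKM before and 16.98 RPKM after release. Its log2 ratio of -1.41 was the lowest of all 58 genes (without pseudocount -1.44, 95% counting interval -1.50 to -1.37), and it was -0.90 after the GC correction. On the per-cell scale described below, EIF2AK2 was 2.22-fold higher after release, and 1.75-fold higher in the authors' renormalized column. EIF2AK3, which encodes the endoplasmic reticulum stress sensor PERK, stood at 6.49 and 3.50 (log2 ratio -0.81). EIF2AK1, the haem-regulated kinase, stood at 18.6 and 20.2 (log2 ratio 0.12, or -0.11 with centring), and EIF2AK4, the amino acid sensor GCN2, at 5.08 and 6.29. EIF2AK2 was therefore the most abundant of the 4 before release, and EIF2AK1 after it. The upstream 250 bases of EIF2AK2 are printed as the promoter of the gene with the lowest ratio (RefSeq, GRCh38.p14, chr2:37156981-37157230, minus strand). Capitals mark CACGTG, the E-box sequence that c-Myc and its partner MAX can bind, here 181 bases before the annotated start.
EIF2AK2: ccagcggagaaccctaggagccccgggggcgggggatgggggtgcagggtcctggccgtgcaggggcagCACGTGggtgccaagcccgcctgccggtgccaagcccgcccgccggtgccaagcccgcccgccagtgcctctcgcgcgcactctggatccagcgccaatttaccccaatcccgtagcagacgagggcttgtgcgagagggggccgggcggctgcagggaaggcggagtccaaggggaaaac

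Start codon selection was the 1 group of core factors with a median below 0 (-0.49 over 4 measured genes). EIF1, which keeps the scanning ribosome from stopping at a wrong codon, stood at 83.9 and 48.96 RPKM (log2 ratio -0.77). Its close paralog EIF1B stood at 26.1 and 16.3 (-0.66), so EIF1 was 3.22-fold above EIF1B before and 3.004-fold above it after release. EIF1AX, the partner of EIF1 on the ribosome, differed in the other direction, at 4.07 and 10.9 (log2 ratio 1.32, and 1.997 after the GC correction). EIF1AD, a protein with an eIF1A-like domain, stood at 9.09 and 7.21. EIF1AY was not measured and is not described further.

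eIF3 is the largest initiation factor, a scaffold of 13 subunits that holds the small ribosomal subunit, the mRNA and eIF4G together. EIF3C and EIF3CL are near-identical genes whose listed values were nearly the same (61.2 and 61.1 before release, 272 for both after), so they are counted here as 1. Of the 13 subunit genes 6 (46.2%) passed 2-fold higher and 0 passed 2-fold lower, where 24.9% and 9.74% of all expressed genes did. The median log2 ratio was 0.91 (0.99 with both copies). All subunits except EIF3J were in the most abundant of the 4 bins, where 38.2% of all genes were higher around a median of 0.64. Counting EIF3CL as well gives 7 of 14, and leaving it out gives 20 higher genes among all those measured. The subunits ranged from slightly lower to more than 4-fold higher. The highest ratios were those of EIF3B (2.15, RPKM 32.8 and 147), EIF3C (2.15), EIF3J (1.998, RPKM 6.26 and 26.5) and EIF3K (1.85, RPKM 41.9 and 152). The lowest were those of EIF3E (-0.19, RPKM 61.8 and 54.3), EIF3H (-0.09, RPKM 91.5 and 85.8) and EIF3L (0.27, RPKM 38.4 and 46.4), and each of these 3 changed sign under at least 1 of the other scalings.

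A split that was chosen after the values were seen separates the 6 subunits that budding yeast also has (EIF3A, EIF3B, EIF3C, EIF3G, EIF3I and EIF3J) from the 7 it lacks. In the first set 5 of 6 were at least 2-fold higher, with a median log2 ratio of 1.57, and in the second 1 of 7, EIF3K, with a median of 0.59. Under centring and under quantile normalization the first set had 3 of 6, without EIF3A and EIF3I, and with the GC correction the second set had 2 of 7, with EIF3M. EIF3A, the largest subunit, stood at an RPKM of 41.1 and 91.9, and EIF3I at 30.8 and 64.9 (log2 ratios 1.15 and 1.06). EIF3G was the member of the first set under 2-fold (0.91) and the most abundant subunit before release, at 143 and 269. In the second set EIF3D, a cap-binding subunit, stood at 59.0 and 100.4, EIF3F at 19.8 and 30.2, and EIF3M at 31.0 and 56.6. The summed RPKM of the first set was 2.77-fold and that of the second 1.53-fold higher after release. EIF3J, which binds the complex loosely, had the lowest level of the 13 in both libraries. With the GC correction EIF3J was highest at 2.48 and EIF3B stood at 1.97, while EIF3H was lowest at 0.30 and EIF3E stood at 0.32. The same correction moved EIF3G to 0.41 and EIF3M to 1.38.

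**Figure D3:**
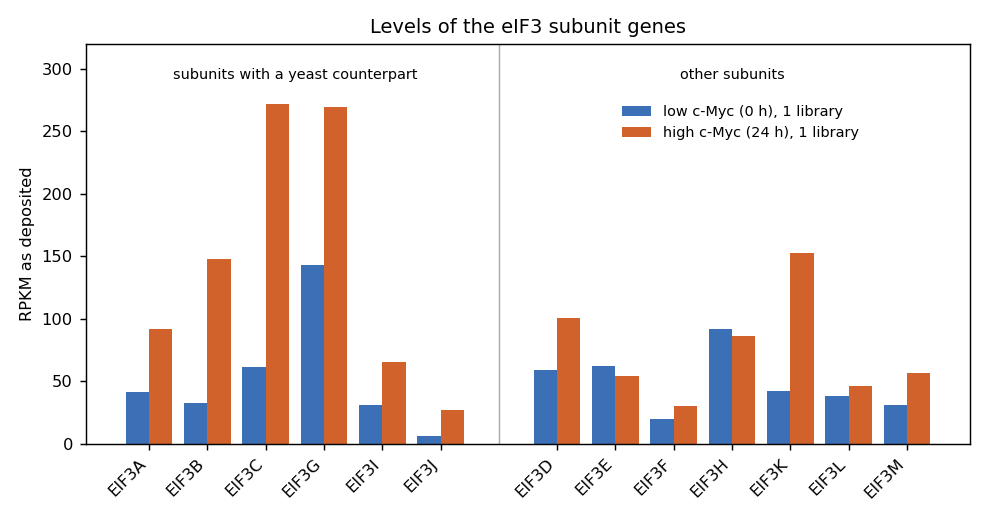
RPKM of the 13 eIF3 subunit genes before (blue) and after (orange) release of c-Myc, with subunits that have a yeast counterpart on the left and the others on the right. This split was chosen after the values were seen. In the left set 5 of 6 genes are at least 2-fold higher as deposited (3 of 6 when centred or quantile normalized), in the right set EIF3K alone (with EIF3M after the GC correction), and EIF3E and EIF3H are slightly lower after release (above 0 with the GC correction).

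The eIF4 genes, which load the ribosome on the capped mRNA, lay on both sides of 0. Of 11 measured genes 3 (27.3%) passed 2-fold higher, close to the 24.9% of all expressed genes, and 0 passed 2-fold lower. Of the 11, 4 had ratios below 0 (2 with the GC correction). Their median was 0.23 (0.01 after centring), beside 0.22 for all expressed genes. EIF4A3, the helicase that marks exon junctions in the nucleus, had the highest ratio at 2.18, with an RPKM of 11.7 and 54.5. EIF4G1, the main scaffold of eIF4F, stood at 60.1 and 236 (1.96), and EIF4A1, its main helicase, at 33.6 and 71.4 (1.08, but 0.86 with centring and 0.44 with quantile normalization). The cofactor EIF4H stood at 32.0 and 62.7 (0.96), and EIF4B, another cofactor of the helicase, at 5.25 and 6.23. EIF4E itself, which binds the cap, was listed at an RPKM of only 1.19 and 1.44, on about 135 and 166 reads. Its log2 ratio was 0.19 (without pseudocount 0.27, 95% counting interval -0.07 to 0.60, which includes 0), and -0.03 with centring. EIF4E has 5 pseudogenes bearing its name, and how reads with several matches were counted is not stated, so its level is uncertain. EIF4E2, a cap-binding relative, stood at 13.08 and 21.98, and EIF4ENIF1, which carries eIF4E into the nucleus, at 8.07 and 7.58.

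Paralogs within the eIF4 group parted from each other. EIF4A1 and EIF4A2, closely related helicases, were level before release (33.6 and 31.7, a ratio of 1.06), and EIF4A1 was 2.39-fold above EIF4A2 after it, where EIF4A2 stood at 29.8. EIF4G2, a relative of the scaffold that lacks the eIF4E-binding part, was the most abundant of the 3 EIF4G genes before release at 103 and stood at 86.2 after it. EIF4G3, the second full-length scaffold, stood at 18.7 and 11.5 (log2 ratio -0.68, or -1.13 with quantile normalization). EIF4G1 was thus 3.21-fold above EIF4G3 before release and 20.4-fold above it after. It stood below EIF4G2 before release and 2.73-fold above it after.

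The promoters of EIF4A3, EIF4G1 and EIF4E are printed because, of the 5 eIF4 genes with an E-box, they have the 2 highest ratios and the lowest. EIF4G1 and EIF4E were chosen after their values were seen. Each is the 250 bases before an annotated start (RefSeq, GRCh38.p14), with CACGTG in capitals. EIF4A3 (chr17:80147129-80147378, minus strand) holds 1 copy, 121 bases before the start. EIF4G1 (chr3:184314356-184314605, plus strand, 1 of 3 windows of this gene in the table) holds 2 copies, 144 and 67 bases before it. EIF4E (chr4:98929134-98929383, minus strand) also holds 2, at 225 and 72 bases. The pair in EIF4G1 and the pair in EIF4E went with log2 ratios of 1.96 and 0.19.
EIF4A3: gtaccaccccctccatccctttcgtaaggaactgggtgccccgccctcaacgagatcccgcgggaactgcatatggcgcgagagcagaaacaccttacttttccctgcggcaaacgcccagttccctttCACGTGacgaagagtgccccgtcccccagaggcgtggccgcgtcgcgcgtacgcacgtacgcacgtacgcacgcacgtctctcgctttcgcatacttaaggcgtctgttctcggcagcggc
EIF4G1: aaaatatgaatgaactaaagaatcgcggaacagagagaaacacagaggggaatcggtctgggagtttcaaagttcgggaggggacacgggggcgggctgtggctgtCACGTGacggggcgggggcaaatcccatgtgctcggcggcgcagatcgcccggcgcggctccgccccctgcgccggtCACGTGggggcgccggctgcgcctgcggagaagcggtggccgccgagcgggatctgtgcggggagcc
EIF4E: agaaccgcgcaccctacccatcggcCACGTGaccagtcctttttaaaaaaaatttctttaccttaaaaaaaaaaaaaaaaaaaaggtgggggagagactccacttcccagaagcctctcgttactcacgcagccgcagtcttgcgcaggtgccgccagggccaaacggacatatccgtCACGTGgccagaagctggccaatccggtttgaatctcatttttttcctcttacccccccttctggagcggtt

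Among the genes of the set for which a promoter was found, ratios with and without the E-box were close. RefSeq promoters of 300 bases, 250 before and 50 after a start, were found for 47 of the 58 measured genes. The 11 genes without one had log2 ratios from -0.19 (EIF3E) to 2.85 (EIF4EBP1), the highest of the set as deposited. CACGTG, which reads the same on both strands, was in at least 1 promoter of 12 of the 47 genes (25.5%). The share was 13.4% among the 7717 expressed genes with a promoter, and 8.77% among all 27305 genes with one. Counted by promoter, 19.7% of the 61 promoters of the set and 7.26% of all 35116 held it. The 12 genes with the sequence had a median log2 ratio of 0.78 and 5 of them were at least 2-fold higher. The 35 without it had a median of 0.74 and 12 of them were higher. Among all expressed genes the medians were 0.45 with and 0.20 without. The lowest ratio of the set, that of EIF2AK2, and EIF1B at -0.66 were among the 12. A match describes these letters in this window and is not a measured site of binding.

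The 3 EIF4EBP proteins, which hold eIF4E away from eIF4G until they are phosphorylated, had the highest group median as deposited, at 1.20. EIF4EBP1 stood at 10.7 RPKM before and 80.3 RPKM after release, a 7.51-fold difference. Its log2 ratio of 2.85 was the highest of all 58 genes as deposited (without pseudocount 2.91, 95% counting interval 2.82 to 3.0005). It has one of the most GC-rich transcripts of the set (65.5% GC), and after the GC correction its ratio was 1.61, no longer the highest (EEF1E1 then had 2.51 and EIF3J 2.48). EIF4EBP3 stood at 11.997 and 28.1 (1.20, but 0.97 both after that correction and with centring) and EIF4EBP2 at 7.97 and 9.74 (0.27, or -0.03 with quantile normalization). The 3 genes were within a narrow range before release, and EIF4EBP1 was 8.25-fold above EIF4EBP2 after it. Their summed RPKM was 30.7 and 118, a ratio of 3.85, of which EIF4EBP1 made up 34.9% and 68.0%. EIF4E, whose protein they occupy, stood at 1.19 and 1.44 RPKM, a 1.20-fold difference on about 135 and 166 reads. Summed with its relative EIF4E2 it came to 14.3 and 23.4, a ratio of 1.64. Most of that sum was EIF4E2 (13.08 and 21.98). The listed level of EIF4E is uncertain because of its pseudogenes. These values therefore do not compare the amounts of EIF4E and of the EIF4EBP genes.

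The eIF5 and eIF6 genes had ratios on both sides of 0. EIF5A, a factor with the unusual amino acid hypusine that helps the ribosome through difficult stretches, stood at an RPKM of 12.8 and 46.5 (log2 ratio 1.82). EIF6, which is needed for the large ribosomal subunit and keeps it from joining the small one too early, stood at 39.7 and 92.7 (1.21, but 0.99 with centring and 0.92 after the GC correction). EIF5B, which joins the subunits, stood at 13.5 and 23.6 (0.79), while EIF5, which triggers GTP hydrolysis by eIF2, stood at 15.6 and 12.3 (-0.33). EIF5A was 348-fold and 438-fold above its paralog EIF5A2, and EIF5A2, EIF5AL1, EIF4E1B and EIF4E3 were under the level for being measured.

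All 8 elongation genes had ratios above 0 as deposited, although EEF1A2 changed sign with the GC correction and EEF2K with quantile normalization. As deposited 4 of the 8 were at least 2-fold higher around a median of 1.01, where 24.9% of all expressed genes were. With the GC correction 2 of the 7 with a GC value were higher around a median of 0.61, where 21.0% of all were. EEF2, which moves the ribosome along the mRNA, stood at 1245 RPKM before release, ranking 7 among the expressed genes. After release it stood at 3012 and ranked 2, a 2.42-fold difference (log2 ratio 1.27, and 0.82 after the GC correction). EEF2K, the kinase that inactivates EEF2, stood at 11.5 and 14.1 (0.29). The exchange factor for EEF1A had 2 subunits past 2-fold, EEF1D at 68.2 and 263 (1.94) and EEF1B2 at 3.14 and 9.92 (1.52), while its subunit EEF1G stood at 83.9 and 141 (0.74). EEF1E1, a part of the multi-tRNA synthetase complex, had a ratio of 1.93 on few reads (about 103 and 561, RPKM 0.932 and 4.94).

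The listed level of EEF1A1, the factor that delivers aminoacyl-tRNA, was low, at an RPKM of 2.79 and 3.36. Its paralog EEF1A2, best known from neurons and muscle, was listed at 150 and 229, 53.6-fold and 68.1-fold above it. EEF1A1 has 50 pseudogenes bearing its name in the RefSeq annotation, the most of any gene here, and no source used here says how reads that match several places were counted. The level of EEF1A1, and the comparison between the 2 paralogs, are therefore uncertain. The log2 ratio of EEF1A2 was 0.61, and -0.77 after the GC correction, with the most GC-rich transcript of the set (66.4%). The same limit on reads touches other genes with at least 5 such pseudogenes, which were EEF1B2, EEF1D, EEF1G, EIF1, EIF2S2, EIF4A1, EIF4A2, EIF4B and EIF4E. The 10 genes had a median of 18.5 RPKM before release, and the 29 genes with none a median of 21.0. The 10 ran from 1.19 (EIF4E) to 83.9 (EIF1), so these medians cannot show whether reads of a given gene were lost.

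Many mRNAs of the translation machinery begin with a run of pyrimidines, the 5′ terminal oligopyrimidine tract, through which their translation is controlled by nutrient signals. A tract, defined here, after the values were seen, as a C at the annotated start followed by at least 4 pyrimidines, was found at a start of 12 of the 47 genes with a RefSeq promoter (25.5%), against 8.14% of expressed genes with one. The first 18 bases of 6 of them are printed as examples from elongation, eIF2, eIF3 and eIF4, with the tract in capitals. They lie at chr19:3985446-3985463 for EEF2 and chr6:73521015-73521032 for EEF1A1, both on the minus strand. Those of EEF1B2 (chr2:206159895-206159912), EIF3K (chr19:38619188-38619205), EIF2S3 (chrX:24054956-24054973) and EIF4A2 (chr3:186783577-186783594) lie on the plus strand of GRCh38.p14.
EEF2: CTCTTCCgccgtcgtcgc
EEF1A1: CTTTTTCgcaacgggttt
EEF1B2: CCTTTTTCCTCTCTTCag
EIF3K: CTCTTCCTgttcccgtcc
EIF2S3: CTCTTTTggcaacatggc
EIF4A2: CTTTTCagtcgggcgctg
Genes with a tract were on both sides of the set's median. EIF3K (1.85), EEF1B2 (1.52) and EEF2 (1.27) were the 3 at least 2-fold higher. EIF2A (-0.18), EIF4A2 (-0.08) and EIF2S3 (-0.02) were the lowest. The median log2 ratio was 0.48 over the 12 genes with a tract and 0.76 over the 35 without, of which 14 were higher, and among all expressed genes it was 0.26 with and 0.22 without.

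Log2 ratios went with the GC content of the transcripts among these genes as they did among all genes. Spearman's rho was 0.44 and Pearson's r 0.45 over the 57 genes with a GC value, and the same measures were 0.41 and 0.42 over 9949 expressed genes. These genes share 2 libraries and are not replicates. The median GC content of the set was 47.3%, below the 50.3% of all expressed genes. After the correction 20 of the 57 genes were higher and none was lower, where 2092 (21.0%) of the 9949 expressed genes were higher and 924 lower, and 17 of the 21 calls with a GC value were kept. The 4 that were not were EIF2AK2, EEF2, EIF6 and EIF4EBP3. EIF2S1 (1.26), EIF3M (1.38) and EIF5B (1.27) passed 2-fold after it. The part of GC content in the ratios was not tested.

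**Figure D4:**
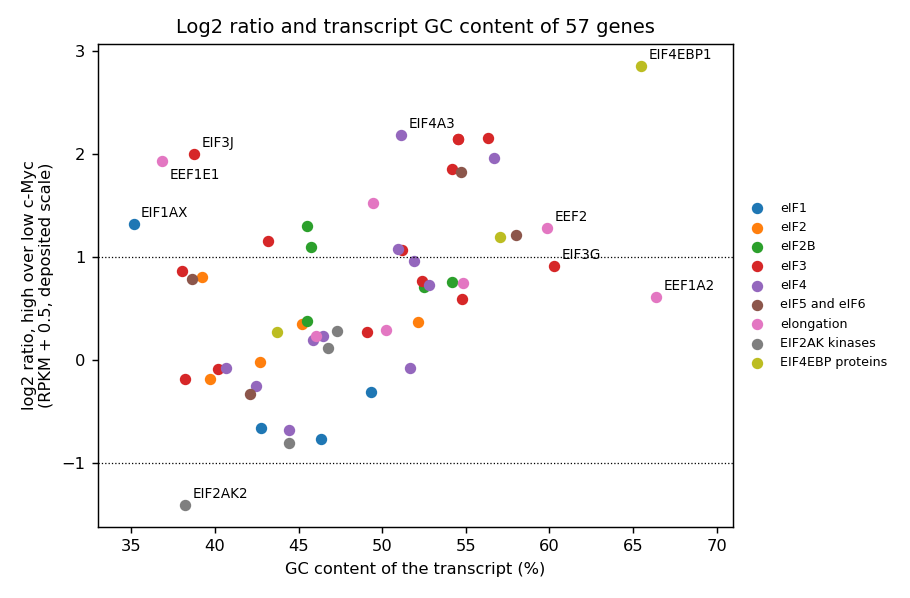
Log2 ratio of high over low c-Myc (y axis) against the GC content of the transcript in percent (x axis) for the 57 genes with a GC value, coloured by group, with dotted lines at 2-fold. EIF4EBP1 and EEF1A2 have the most GC-rich transcripts, at 65.5% and 66.4%, with ratios of 2.85 and 0.61, and EIF1AX, EEF1E1 and EIF3J are AT-rich genes past 2-fold.

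Ratios of neighbouring genes of the pathway had an SD of 1.23 over genes, against 0.91 for the set and 1.14 for all expressed genes. A fixed list held 46 other translation genes, of which 45 were measured. Of these 16 (35.6%) were at least 2-fold higher and 2 were lower, around a median of 0.57. Among all expressed genes 24.9% were higher and 9.74% lower, around a median of 0.22. With centring 12 of the listed genes were higher and with quantile normalization 11, where 19.8% and 17.5% of all expressed genes were. PAIP2 and PAIP2B, which keep poly(A)-binding protein from its partners, were the 2 lower genes, at -1.29 (RPKM 53.6 and 21.7, or -0.86 after the GC correction) and -1.28 (3.27 and 1.05). DOHH, the enzyme that completes hypusine on EIF5A, had the highest ratio of the list at 4.35 (RPKM 2.13 and 53.1, and 2.80 after the GC correction), while DHPS, the enzyme before it, stood at 50.04 and 57.7 (0.20, or -0.04 after that correction). BZW2, an eIF5-like regulator, followed at 2.85 (0.387 and 5.87). DPH2, PELO, TUFM and PDCD4 were chosen after their values were seen. DPH2, which helps place the diphthamide of EEF2, had a ratio of 2.84 (7.91 and 59.6), and the other 4 diphthamide genes were under 2-fold. Of 6 genes of termination and recycling 4 were higher, with PELO at 2.41, and of 8 mitochondrial factors 3 were higher, with TUFM, the mitochondrial counterpart of EEF1A, at 2.35 (55.6 and 286). PDCD4, an inhibitor of eIF4A and 1 of 7 regulators listed, had a ratio of -0.92 (59.7 and 31.4).

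Per cell, with the synthetic RNAs added by cell number as the common measure, all 58 measured genes passed 2-fold higher after release, where 97.1% of all expressed genes were. None was lower, beside 0.0876% of all expressed genes. The synthetic RNAs were a median of 5.88-fold lower in RPKM after release (log2 ratio -2.56, interquartile range -2.84 to -2.17 and SD 0.54 over 46 synthetic RNAs), and that ratio was taken off every gene. The median per-cell difference of the set was 9.79-fold, beside 6.86-fold for all expressed genes. It was 42.5-fold for EIF4EBP1, 26.6-fold for EIF4A3 and 26.2-fold for EIF3B at the upper end. At the lower end it was 2.22-fold for EIF2AK2, 3.37-fold for EIF2AK3 and 3.45-fold for EIF1. EEF2 was 14.2-fold and EIF4E 6.73-fold higher per cell. In the authors' column renormalized to the synthetic RNAs the values were 35.6-fold for EIF4EBP1, 15.1-fold for EEF2 and 1.75-fold for EIF2AK2, which there was under 2-fold. The order of genes is that of the deposited scale, since 1 factor separates both scales, and with bulk RNA a change in the mix of cells and in RNA per cell cannot be told apart.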

How the data were processed

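The data are RNA-seq levels of P493-6 cells, 1 sample before (0 h) and 1 after (24 h) c-Myc release. Per the labels' protocols, ERCC synthetic RNAs were added by cell number, poly(A) RNA was selected and strand-marked libraries were made with 15 PCR cycles. Bowtie was used with build hg18, per the submitters' processing notes. No source used here gives the counting tool, filters, use of strand or treatment of reads with several matches, so values of overlapping or near-identical genes are uncertain. The authors deposited RPKM values, and, as a second column, RPKM renormalized with the synthetic RNAs. How that was done is not stated, and the column served as an alternative.

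Log2 ratios used a pseudocount of 0.5 and a mean RPKM of at least 1 (10272 genes), and a call needed an absolute log2 ratio of 1. Per-cell ratios had the median log2 ratio of 46 synthetic RNAs subtracted. Depth came from low values: RPKM times transcript length, in reads, lay within 0.05 of a whole number for 48.8% and 45.7% of transcripts with up to 20 reads, against 10% by chance. Counting intervals are exact binomial (Clopper-Pearson, 95%) on those approximate reads and cover counting error only. Transcript length and GC were read from GENCODE release 29 by RefSeq accession, and the GC correction subtracted a lowess fit (span 0.3). Promoter sequences and starts came from RefSeq (GRCh38.p14), and no coordinates came from the tables. Other pseudocounts, filters, scalings and summed rows were tried. With 1 library per group no count model or p-value was used. The text names every measured gene of the rule, and of the neighbouring genes the 2 highest, the 2 lowest and both hypusine genes, plus 4 chosen after their values were seen. The genes and lists were chosen with earlier results of these data known. The procedure was tested on simulated data. Some marker genes are not reported here. Tools were matplotlib 3.10.9, statsmodels 0.14.6, pandas 2.3.3, scipy 1.17.1 and numpy 2.4.6 under Python 3.11.15.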

Additional observations from a re-analysis of the deposited data

How the results depend on the processing

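Pseudocounts of 0.1 and 1, dropping the filter and summing rows of a gene kept all 22 calls of the set and added none, and a mean RPKM of at least 5 kept the 21 called genes it left. Centring on the median of all expressed genes kept 16 of 22 calls and added 1, quantile normalization kept 16 and added 4, and no call changed sign under these settings. The set's median log2 ratio was 0.51 with centring, 0.22 with quantile normalization and 0.61 with the GC correction, and 2, 5 and 0 genes were lower. Among the neighbouring genes 1 was lower at a mean RPKM of at least 5, 8 with centring (median 0.35) and 10 with quantile normalization (median 0.13). With centring the medians were -0.71 for eIF1, 0.12 for eIF2, 0.54 for eIF2B, 0.77 for eIF3, 0.0067 for eIF4, 0.78 for eIF5 and eIF6, 0.79 for elongation, -0.57 for the EIF2AK kinases and 0.97 for the EIF4EBP proteins. Quantile normalization gave -0.91 for eIF1, -0.11 for eIF2 (a change of sign), 0.43 for eIF2B, 0.48 for eIF3, 0.45 for eIF5 and eIF6, 0.66 for elongation, -0.69 for the kinases and 0.72 for the EIF4EBP proteins. The GC correction gave -0.33 for eIF1, 0.66 for eIF2B, 1.22 for eIF3, 1.10 for eIF5 and eIF6, 0.61 for elongation, -0.18 for the kinases and 0.97 for the EIF4EBP proteins. At a mean RPKM of at least 5 the medians were 0.17 for eIF2, 0.48 for eIF4 and 0.12 for the kinases (a change of sign, since EIF2AK3 is then left out), and without a filter 0.48 for eIF5 and eIF6, since EIF5A2 and EIF5AL1 then enter. Leaving out EIF3CL, chosen after seeing the data, gave 0.91 for eIF3. Per cell the median log2 ratio of 3.29 was 2.87 in the authors' renormalized column, where 57 genes were higher, and 3.23 with synthetic RNAs at an RPKM of at least 10. CACGCG beside CACGTG raised the share of genes with a motif from 25.5% to 36.2%, where 32.6% of expressed genes had one. Apart from the changes in which genes entered, the cause was not tested. No paired analysis was possible because each group holds 1 library. Depth limits EIF4E and EEF1E1 most, and the level of EIF4E is also uncertain because of its pseudogenes.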

Other observations

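Of the 58 measured genes 23 had several rows, which share reads and are not replicates. For 21 of the 23 the log2 ratios of their rows lay within 0.2 of each other. The widest range was that of EEF1E1, whose rows gave 1.93 and 2.71. EEF1D rows gave 1.92 to 2.14. The rows NM_032378 and NM_001130053 stood at 35.4 and 37.2 RPKM before release, and the other 5 at 58.004 to 68.2.

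EIF3C and EIF3CL held 8 rows for 4 accessions, each accession listed with 2 values. For NM_003752 the rows stood at 21.8 and 61.2 RPKM before release and at 97.2 and 272 after it, so that the level of EIF3C depends 2.81-fold and 2.80-fold on which row is taken. The log2 ratio does not, at 2.13 and 2.15.

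EIF4E was listed on 3 rows at 0.810, 0.811 and 1.19 RPKM before release, the lowest levels among the initiation factors that were measured.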
